A study of Mus musculus with 38 samples.

Results

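The genes described here are 36 lysosomal genes of 19937 genes measured: 13 genes of the vacuolar proton pump (V-ATPase), 13 acid hydrolases, and 10 others, namely 6 membrane proteins, 3 non-enzymatic luminal proteins and the transcription factor Tfeb. They were taken from a list of symbols, with the probe set of highest mean over all arrays for each symbol, and all 36 had a value. Only Atp6v1f had more than 1 probe set.

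Expression was read from 38 Affymetrix Gene 1.0 ST arrays of messenger RNA from sorted myeloid cells, and each value is a log2 intensity. All mice were wild-type C57BL/6 females aged 6 weeks, with or without 2,4-dinitrofluorobenzene (DNFB), a contact sensitiser applied as 10 µl at 0.5%, with tissue taken 3 days later. Every population has 3 arrays, from separate pools of mice within the population, except P1 after DNFB, which has 2. The same numbers recur in the source names of different populations, so arrays of different populations could share a pool. The DNFB groups were dermal P1, dermal P2, dermal CD11b+ dendritic cells (DC), node DC and node CD64+ cells. The steady-state groups were blood Ly6C-high monocytes, dermal P1 to P5, dermal DC and node DC. All were CD11b+, and those of dermis and node were CD24-. P1 was CD64low, Ly6C-high, CCR2+ and negative for MHC class II. P2 was CD64+, Ly6C-high, CCR2+ and MHC class II+, and P3 differed from it in being Ly6C-low. The labels call P1 to P3 monocytes. P4 and P5 were sorted as macrophages, CD64+, Ly6C- and CCR2-, without MHC class II in P4 and with it in P5. Dermal DC were CD64- and MHC class II+. Node DC and node CD64+ cells, both with high MHC class II and CD11c, came from the cutaneous lymph nodes and are labelled as cells that migrated from the dermis. The node CD64+ cells exist only after DNFB, and their fields name them as monocytes, as non-DC and as DC.

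Dermis was digested with dispase and collagenase 4 and lymph nodes with collagenase 2, on different gradients, so tissue and preparation cannot be told apart in any comparison of dermis with blood or node. The study names 3 chip batches but not which array was in which. Marker genes matched the labels only in part. Ccr2 averaged 8.14 in P4 and 9.15 in P5, both sorted as CCR2-, against 4.37 in steady-state node DC and 10.98 in blood monocytes. Fcgr1, which encodes CD64, averaged 5.94 in the CD64- dermal DC at steady state but 7.98 after DNFB. In the CD64+ P2 it averaged 7.99 at steady state and 9.94 after DNFB. The mean of 5 DC markers lay between 9.12 and 9.34 in node DC, between 8.22 and 9.06 in dermal DC and between 4.83 and 7.43 in P1 to P5 and blood monocytes. That of 5 macrophage markers lay between 9.63 and 10.3 in P3, P4 and P5. The mean of 3 monocyte markers was 10.63 to 10.73 in blood monocytes, but 6.96 to 7.24 in P3 and 6.22 to 7.23 in steady-state dermal DC. P3, labelled as monocytes, thus had macrophage markers at the level of P4 and P5. Of its 3 monocyte markers, Plac8 and Vcan averaged 5.19 and 5.43, far below 12.04 and 8.96 in blood monocytes. Ccr2 did not follow them, at 10.67 in P3 and 10.32 in steady-state dermal DC against 10.98 in blood monocytes. The DC markers averaged 8.47 to 9.38 in node CD64+ cells. Markers of cells that were not sorted were present in dermal samples. The mean of 9 keratinocyte markers was 7.197 to 8.816 in steady-state P1 to P5 and 6.86 to 7.63 in steady-state dermal DC, against 4.55 to 4.75 in blood monocytes and 4.73 to 5.17 in the node groups. The mean of 10 fibroblast markers was 6.91 to 10.4 in P1 and 8.42 to 8.61 in P2 at steady state, against 4.446 to 4.502 in blood monocytes. The mean of 8 mast cell and basophil markers was 4.74 to 6.13 in P4, against 3.90 to 4.68 in P5 and 3.34 to 3.57 in blood monocytes, with 3 of the 8 at low signal in P4. Its most abundant gene, the mast cell protease Mcpt4, averaged 9.49 ± 0.76 in P4, 6.54 ± 1.11 in P5 and 3.73 ± 0.21 in blood monocytes (SD, n = 3 each). As these are bulk samples, fewer cells of a type and less RNA per cell cannot be told apart.

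Lysosomes break down what a cell takes up by endocytosis and phagocytosis, and macrophages are rich in them. The V-ATPase moves protons into the lumen through its membrane sector V0, driven by ATP hydrolysis in its cytosolic sector V1, and the acid pH lets the hydrolases work. DC are known for milder lysosomal breakdown than macrophages, which spares antigen for MHC class II. Tfeb and its relatives Tfe3, Mitf and Tfec bind a short palindrome, an E-box, near many lysosomal genes.

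That palindrome was searched for in RefSeq promoter windows of build GRCm38.p6, which run from 250 bases before to 50 bases after a gene's start. Of the 36 genes 31 had a window. The 6 bases CACGTG, which read the same on both strands, stood in 9 of the 31 (29.0%), and in 8.09% of all 27025 genes with a window. The 8 bases TCACGTGA, also the same on both strands and containing the 6, stood in 4 of the 31 (12.9%), against 1.12% of all genes. These 4 are Gla, Atp6v1a, Mcoln1 and Atp6v0d1. By class, the longer form stood in 1 of 12 hydrolase windows and 2 of 9 V-ATPase windows. A match is a string of letters and not a measured binding site. The 4 windows are printed 5′ to 3′ along the gene's own strand, with TCACGTGA in capitals, so that Gla, whose dermal arrays all lay above its blood and node arrays, can be set beside the 3 others that hold it. They lie at X:134600956-134601255 on the minus strand for Gla, 16:44139210-44139509 on the minus strand for Atp6v1a, 8:3500269-3500568 on the plus strand for Mcoln1 and 8:105566015-105566314 on the minus strand for Atp6v0d1.
Gla: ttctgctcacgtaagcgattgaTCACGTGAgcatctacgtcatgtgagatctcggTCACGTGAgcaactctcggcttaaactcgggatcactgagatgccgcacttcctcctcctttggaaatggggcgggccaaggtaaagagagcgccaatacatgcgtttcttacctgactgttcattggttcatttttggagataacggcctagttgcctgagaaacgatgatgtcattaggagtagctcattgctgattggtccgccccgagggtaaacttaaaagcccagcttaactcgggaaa
Atp6v1a: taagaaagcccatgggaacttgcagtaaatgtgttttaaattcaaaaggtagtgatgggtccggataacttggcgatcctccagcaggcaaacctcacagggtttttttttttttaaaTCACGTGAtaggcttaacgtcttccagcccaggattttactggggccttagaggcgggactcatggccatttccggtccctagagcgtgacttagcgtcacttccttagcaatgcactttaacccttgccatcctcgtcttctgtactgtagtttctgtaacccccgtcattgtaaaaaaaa
Mcoln1: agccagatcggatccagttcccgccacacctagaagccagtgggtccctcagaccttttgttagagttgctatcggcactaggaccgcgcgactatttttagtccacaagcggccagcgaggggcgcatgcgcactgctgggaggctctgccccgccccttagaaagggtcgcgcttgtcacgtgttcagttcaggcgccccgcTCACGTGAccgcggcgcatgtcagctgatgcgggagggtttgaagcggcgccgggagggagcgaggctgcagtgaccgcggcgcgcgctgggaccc
Atp6v0d1: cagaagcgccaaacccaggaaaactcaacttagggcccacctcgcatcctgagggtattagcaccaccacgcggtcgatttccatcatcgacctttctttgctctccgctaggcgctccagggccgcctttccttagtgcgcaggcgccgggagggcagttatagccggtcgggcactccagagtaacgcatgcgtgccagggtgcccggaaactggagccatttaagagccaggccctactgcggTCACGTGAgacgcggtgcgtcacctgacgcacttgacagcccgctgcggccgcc
Gla holds 2 copies, the first starting at position -228 from the start of the gene. The single copies start at -132 in Atp6v1a, -46 in Mcoln1 and -4 in Atp6v0d1.

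The 36 genes varied more between populations than most genes did. The range of the 13 population means had a median of 1.87 on the log2 scale over the 36 genes, against 0.70 over all 19937 genes. All genes include many of low level: a filter on low genes kept 9969 of the 19937, and 35 of the 36. A reference of genes at a like level was not computed, and the shares of all genes called also include the low ones. The median range was 2.28 for the hydrolases, 1.51 for the V-ATPase genes and 1.66 for the others. The median spread between arrays of a population was 0.27 (SD) for the 36 genes. The widest ranges belonged to Atp6v0d2 (4.26), Cd68 (4.02), Gla (3.94), Gaa (3.197) and Galc (3.05), and the narrowest to Laptm5 (0.47) and Atp6v1f (0.53). Of the 36 genes 17 had their highest population mean in P4, where the mast cell and basophil markers were also highest, and the part of those cells in these levels was not tested. In node DC 22 genes had their lowest mean, 15 of them after DNFB. The shares of all 19937 genes with their highest mean in P4 or lowest in node DC were not computed. These counts therefore cannot be called particular to the 36 genes. Values under 4.02, the 40th percentile of all values, are taken as low signal, where no exact fold is given. Atp6v0d2 was there in 8 of the 13 populations.

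**Figure D1:**
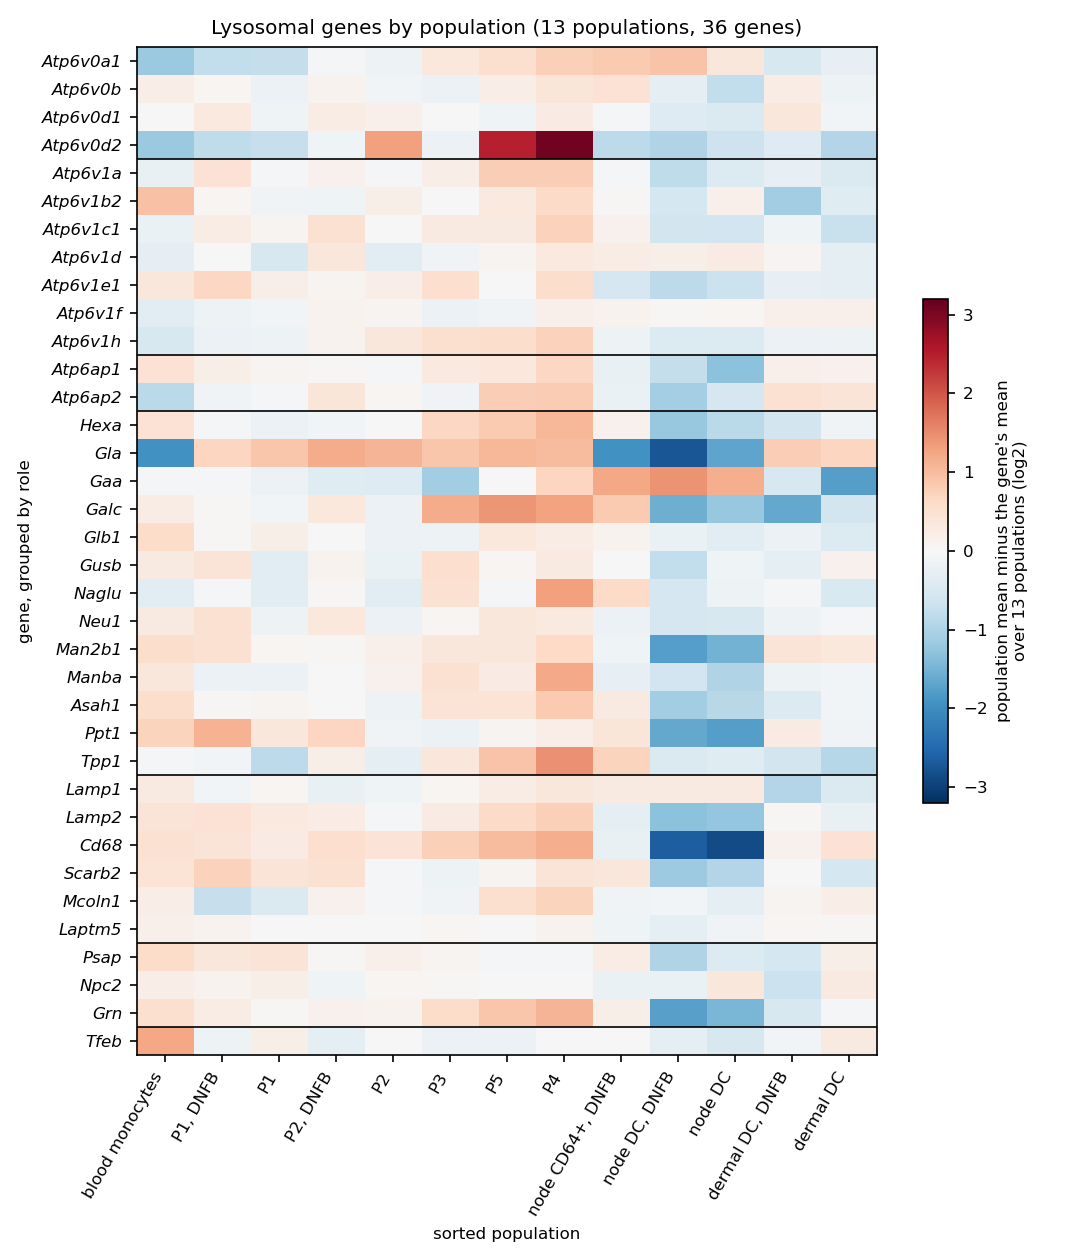
Colour gives each population's mean log2 value minus the gene's mean over 13 populations, for 36 lysosomal genes in rows (V0, V1 and accessory V-ATPase genes, hydrolases, membrane proteins, luminal proteins, Tfeb) and 13 populations in columns. The P4 column is red for most genes, with Atp6v0d2 deepest, and the node DC columns are blue for most, with Cd68 and Gla deepest and Gaa red.

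Hydrolases and V-ATPase genes were compared by the mean, over the 13 genes of each class, of the log2 value minus the gene's own mean over the populations. On this scale the hydrolases ran between -0.91 in node DC after DNFB and 0.81 in P4, and the V-ATPase genes between -0.43 and 0.76 in the same populations. The hydrolases were thus lower than the V-ATPase genes in node DC at -0.71 against -0.39 at steady state, and higher in blood monocytes at 0.13 against -0.22. In P4, P5 and dermal DC at steady state both classes lay close together, at 0.81 and 0.76, at 0.46 and 0.47 and at -0.27 and -0.24. In P4 and P5 the V-ATPase mean was raised by Atp6v0d2, which averaged 7.30 and 6.71 there and at most 5.54 elsewhere. Class means without Atp6v0d2 were not computed, so the closeness in P4 and P5 cannot be ascribed to the other V-ATPase genes. Over the 13 population means, the median Pearson correlation between pairs of genes was 0.57 among hydrolases, 0.37 among V-ATPase genes and 0.50 between the classes. These correlations describe populations that differ in tissue and preparation.

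**Figure D2:**
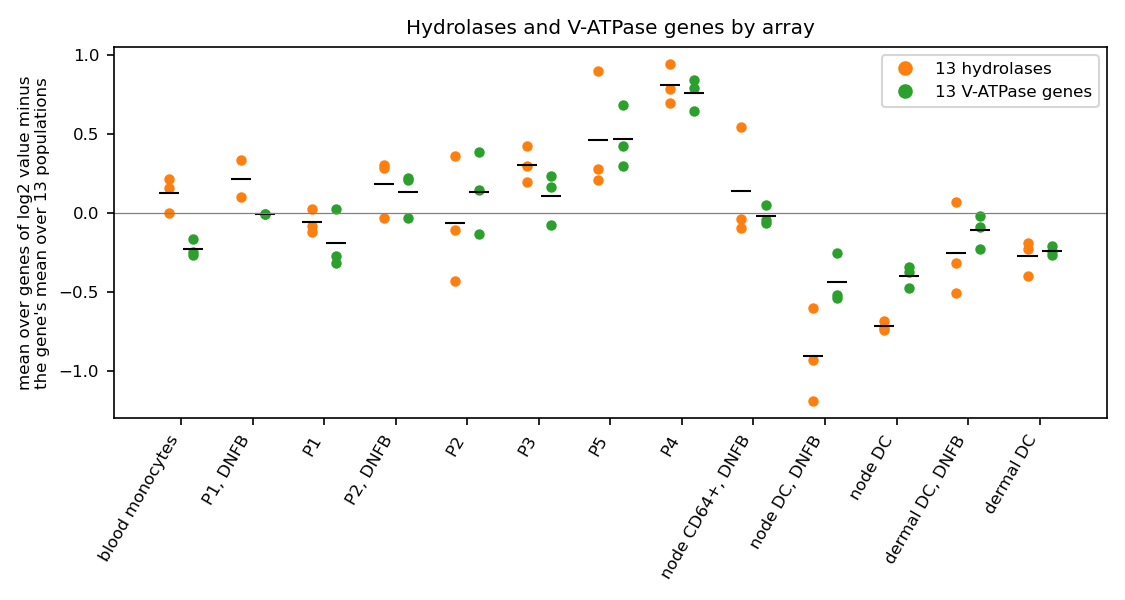
Each point is 1 array, and lines are population means, of the centred log2 value averaged over 13 hydrolases (orange, left) and 13 V-ATPase genes (green, right). Both classes are highest in P4, and in node DC every hydrolase point lies below every V-ATPase point of the same population, whose means are -0.91 and -0.43 after DNFB and -0.71 and -0.39 at steady state.

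Within the V-ATPase, subunits moved apart. The V0 subunit d has 2 forms, Atp6v0d1, which most cells make, and Atp6v0d2, known from osteoclasts and macrophages. Atp6v0d2 stood at 7.24, 7.83 and 6.82 in P4 and at 7.36, 7.24 and 5.53 in P5. It stood at 6.74, 6.48 and 3.39 in P2, at 3.48, 3.84 and 4.75 in P3 and at 3.49, 3.42 and 3.52 in P1, all at steady state. The P4 and P5 arrays thus lie above all other arrays except 2 of the 3 P2 arrays, the remaining one of which is at low signal. In blood monocytes, dermal DC and all node groups Atp6v0d2 lay between 2.76 and 4.13. Atp6v0d1 lay between 7.75 and 9.12 in all 38 arrays, with its lowest means in node DC.

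Of the V1 genes that carry out ATP hydrolysis, Atp6v1a, the catalytic A subunit, had its highest mean in P4 (9.46, 9.25 and 9.49). Its P5 arrays overlapped with these, at 9.27, 9.38 and 9.51. Atp6v1b2, the B subunit, had its highest mean in blood monocytes (10.52, 10.49 and 10.08). Its P4 arrays overlapped with those, at 9.85, 10.08 and 10.14. Atp6v1c1 and Atp6v1h, which link and regulate V1, had their highest means in P4, with ranges of 1.47 and 1.26. Atp6v0a1, a form of the V0 subunit a, was lowest in blood monocytes (7.24, 6.90 and 7.11) and highest in node DC after DNFB (9.27, 9.05 and 9.20). The order of its means then ran through node CD64+ cells and P4, whose arrays overlap with those of node DC after DNFB.

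**Figure D3:**
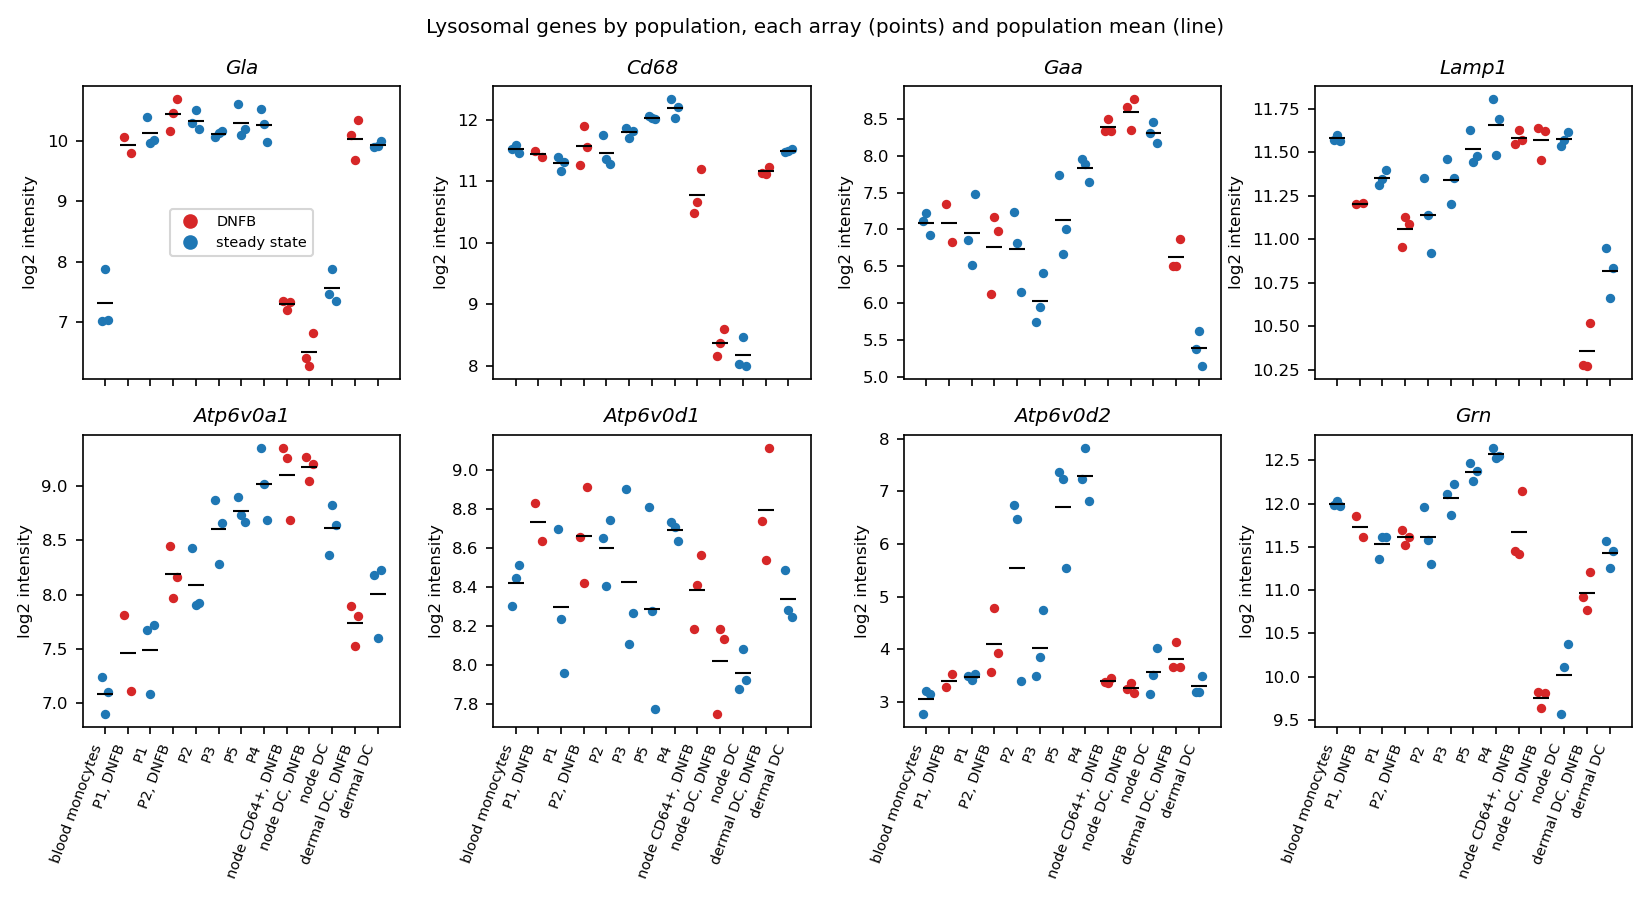
Each point is 1 array (DNFB red, steady state blue) and each line a population mean, in log2 intensity on an axis that differs between the 8 genes. Gla is 9.69 to 10.69 in every dermal array and below 8 elsewhere, Cd68 is low only in node DC, Gaa is highest in the node groups, and Atp6v0d2 is high in P4, P5 and 2 arrays of P2.

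Between blood and dermis, Gla changed most. In P1 against blood monocytes, 2 of the 36 genes rose and 2 fell, when 12.6% of all genes passed, 5.21% higher and 7.43% lower (limma, adjusted p under 0.05 over 19937 genes, as in every comparison here). Gla, which encodes alpha-galactosidase A, was at 10.40, 9.97 and 10.01 in P1 and at 7.02, 7.88 and 7.04 in blood monocytes, and the groups did not overlap. It was 7.03-fold higher in P1, a log2 difference of 2.81 ± 0.21 (SE, adjusted p = 6.82e-11 in limma). With the keratinocyte and fibroblast marker means as covariates the difference was 3.60 (adjusted p = 9.53e-06 in limma). Atp6v1b2 fell by 1.06 ± 0.17 on the log2 scale (adjusted p = 6.4e-05 in limma), at 9.42, 9.40 and 9.11 in P1 against 10.52, 10.49 and 10.08 in blood monocytes. Tfeb fell by 1.05 ± 0.25 (adjusted p = 0.00438 in limma), at 7.10, 7.03 and 6.42 in P1 against 8.09, 7.47 and 8.15 in blood monocytes. With the covariates neither passed, at adjusted p = 0.18 for Atp6v1b2 and 0.765 for Tfeb in limma. Atp6ap2, an accessory V-ATPase protein, rose by 0.81 ± 0.22, with adjusted p = 0.0134 in limma, but 0.145 without blood replicate 3, 0.0899 without P1 replicate 1 and 0.0706 with the covariates. Of the 13 hydrolases 1 rose and 0 fell, with a median log2 difference of -0.44, against 0.16 for the V-ATPase genes and 0.01 for all genes. Leaving out P1 replicate 2 moved the 4 calls to 7.

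P3 against blood monocytes showed the same gene on top. Of the 36 genes 4 rose and 5 fell, with 14.6% of all genes called, 6.73% higher and 7.91% lower. Gla was 7.01-fold higher (2.81 ± 0.21, adjusted p = 1.74e-11 in limma), at 10.07, 10.14 and 10.17 in P3. Atp6v0a1 was 2.87-fold higher (1.52 ± 0.22, adjusted p = 7.25e-06 in limma), at 8.87, 8.28 and 8.66 in P3 against 7.24, 6.90 and 7.11 in blood monocytes. Atp6v1h rose by 1.04 ± 0.15 and Atp6ap2 by 0.74 ± 0.22, while Atp6v1b2 fell by 0.94 ± 0.17. Tfeb fell by 1.42 ± 0.25 (adjusted p = 9.62e-05 in limma), to 6.38, 6.27 and 6.82 in P3. Gaa, the acid alpha-glucosidase of glycogen breakdown, fell by 1.05 ± 0.28, and Ppt1, a palmitoyl-protein thioesterase, by 0.92 ± 0.21. Psap, the precursor of the saposins that present lipids to hydrolases, fell by 0.48 ± 0.14. The covariates left Gla at 3.63 (adjusted p = 7.4e-08 in limma) and took the call from Gaa (adjusted p = 0.922), Ppt1 (0.526), Tfeb (0.349), Psap (0.494) and Atp6v1b2 (0.111) in limma. Here too the covariates did not overlap between the groups (keratinocyte mean 7.30 to 8.67 in P3), so unsorted cells and tissue cannot be told apart by them. Without P3 replicate 1 the adjusted p of Gaa was 0.0525 in limma, and Psap and Atp6ap2 also lost their calls without 1 array (highest adjusted p 0.0754 and 0.219 in limma). Both comparisons share the blood arrays.

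Other lysosomal genes, a list of 56 of which 48 were measured, showed 3 rises and 8 falls in P1 against blood monocytes, and 5 and 7 in P3. Cd63, a tetraspanin of late endosomes, averaged 10.28 in P1 and 3.85 in blood monocytes (low signal). It was at least 67.3-fold higher in P1 (adjusted p = 7.48e-16 in limma), taking each blood array at no less than 4.02. Sort1, a sorting receptor for hydrolases, fell by 1.62 ± 0.26 in P1 and by 3.38 ± 0.26 in P3. Hgsnat, an enzyme of heparan sulphate breakdown, fell by 1.59 ± 0.28 and 1.57 ± 0.28.

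Among P1 to P3, which the labels call monocytes, few of these genes passed, and few of all genes did. In P2 against P1, 1 of 36 rose and 0 fell, with 2.09% of all genes called, 1.34% higher and 0.742% lower. That gene was Atp6v0d2, at least 2.86-fold higher with the P1 arrays, all at low signal, taken at 4.02 (adjusted p = 0.0357 in limma), and with overlapping arrays. The call rested on the spread within P2: adjusted p was 0.29 without P2 replicate 1, 0.212 without P2 replicate 2 and 8.6e-06 without P2 replicate 3, and it lay between 0.0764 and 0.0918 without any 1 of the P1 arrays, all in limma. Atp6v0d1 differed by 0.30 ± 0.21 between the same groups (adjusted p = 0.692 in limma). In P3 against P2, 0 of 36 genes passed in limma, with 0.371% of all genes called, 0.176% higher and 0.196% lower, and 10 had an unadjusted p under 0.05. The hydrolase median was 0.35 and the V-ATPase median 0.16, a difference of 0.19 that was 0.07 without P2 replicate 2 and 0.33 without P2 replicate 1. Leaving out P2 replicate 1 or P2 replicate 3 gave 1 call.

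Between the macrophage populations none of the 36 genes passed, and few of all genes did. In P5 against P4, 0 of 36 genes passed in limma, with 0.492% of all genes called, 0.291% higher and 0.201% lower, and 4 had an unadjusted p under 0.05. All 13 V-ATPase genes had lower means in P5, with a median of -0.26, and the hydrolase median was -0.23, while the median of all genes was 0.01. The 8 mast cell and basophil markers had a median of -0.92 in the same comparison, with 0 of 8 passing, and their part in the V-ATPase and hydrolase shifts was not tested. Tpp1, tripeptidyl peptidase 1, was at 10.10, 9.17 and 9.11 in P5 and at 10.10, 9.88 and 10.07 in P4. Naglu, an enzyme of heparan sulphate breakdown, was at 7.18, 5.10 and 5.81 in P5 and at 7.61, 7.32 and 7.29 in P4. One P5 array lay near the P4 level in both genes.

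In P5 against P3, 3 of 36 genes rose and 0 fell, with 1.25% of all genes called, 0.557% higher and 0.697% lower. Atp6v0d2 rose (adjusted p = 0.00574 in limma), with a fitted log2 difference of 2.69 ± 0.54. That difference has no exact size, as 2 of the 3 P3 arrays were at low signal. Without P3 replicate 1 the adjusted p of Atp6v0d2 was 0.052 in limma. Gaa rose by 1.09 ± 0.28 (adjusted p = 0.0397 in limma), at 7.73, 6.66 and 7.004 in P5 against 5.75, 5.95 and 6.41 in P3. Atp6ap2 rose by 0.89 ± 0.22 (adjusted p = 0.0349 in limma). The last 2 lost their calls without any 1 of 4 arrays, with adjusted p up to 0.251 for both in limma. Atp6v0d1 differed by -0.14 ± 0.21. Without P3 replicate 1, 0 of 36 genes passed, and without P3 replicate 2 or P5 replicate 1, 1 passed.

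Macrophages and DC of the steady-state dermis differed in more of the genes. In P5 against dermal DC, 14 of 36 rose and 0 fell, with 6.52% of all genes called, 3.15% higher and 3.37% lower. Of the V-ATPase genes 6 rose (median 0.38), of the hydrolases 4 (median 0.42) and of the others 4, and the median of all genes was -0.02. Atp6v0d2 was at least 6.46-fold higher (adjusted p = 5.87e-05 in limma), with dermal DC at low signal (3.19, 3.19 and 3.49) and each of its arrays taken at 4.02. Atp6v1a was 2.39-fold higher (1.26 ± 0.16, adjusted p = 2.35e-06 in limma), at 9.27, 9.38 and 9.51 in P5 against 8.32, 8.12 and 7.95 in dermal DC. Atp6v1c1, Atp6v0a1, Atp6v1h and Atp6v1b2 rose by 1.00, 0.76, 0.73 and 0.70.

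Among the hydrolases Galc, the galactosylceramidase, was 3.97-fold higher in P5 than in dermal DC (1.99 ± 0.44, adjusted p = 0.0035 in limma), at 7.56, 7.18 and 6.88 in P5 against 4.74, 4.70 and 6.23 in dermal DC. Tpp1 was 3.55-fold higher (1.83 ± 0.31, adjusted p = 0.000159 in limma), at 10.10, 9.17 and 9.11 against 7.98, 7.57 and 7.35. Gaa was 3.34-fold higher (1.74 ± 0.28, adjusted p = 6.89e-05 in limma), at 7.73, 6.66 and 7.004 against 5.39, 5.63 and 5.16. The arrays of the 3 genes did not overlap between P5 and dermal DC. Hexa, the alpha chain of beta-hexosaminidase, rose by 0.95 ± 0.22.

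Of the membrane and luminal proteins, Grn (progranulin), Lamp2, Lamp1 and Cd68 rose in P5 against dermal DC by 0.94, 0.86, 0.70 and 0.54 on the log2 scale. Lamp1 and Lamp2 are the main glycoproteins of the lysosomal membrane, and Cd68 is a related one of macrophages. The call of Cd68 (adjusted p = 0.0362 in limma) was lost without any 1 of the 6 arrays (0.077 to 0.101 in limma). Those of Atp6v1c1 and Atp6v0a1 were lost without any 1 of 4 arrays (up to 0.18 and 0.247 in limma), that of Hexa without P5 replicate 1 (0.0564) and that of Atp6v1b2 without dermal DC replicate 1 (0.0728, both limma). The keratinocyte marker mean was 7.38 to 8.79 in P5 and 6.86 to 7.63 in dermal DC, and with the covariates all 14 genes still passed. Of the 48 other lysosomal genes 9 rose and 3 fell, led by Tfec, a relative of Tfeb, at 3.46 ± 0.48, Cd63 at 2.29 ± 0.28 and Pla2g15, a lysosomal phospholipase, at 1.95 ± 0.27. Tfeb itself did not pass.

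In dermal DC against P3, 0 of 36 genes rose and 6 fell, with 1.8% of all genes called, 0.747% higher and 1.05% lower. Galc fell by 1.77 ± 0.44 (adjusted p = 0.028 in limma), at 4.74, 4.70 and 6.23 in dermal DC against 7.85, 6.41 and 6.73 in P3. Tpp1 fell by 1.29 ± 0.31, Atp6v1e1 by 0.84 ± 0.19, Atp6v1h by 0.69 ± 0.15 and Atp6v1a by 0.68 ± 0.16. Lamp1 fell by 0.52 ± 0.10 (adjusted p = 0.00349 in limma), and it alone kept its call without any 1 array. Without dermal DC replicate 2 only 1 gene passed, without P3 replicate 1 it was 2, and without P3 replicate 3 or dermal DC replicate 3 it was 3. Of the 48 other genes 6 fell, led by Tfec (-2.68 ± 0.48). P5, dermal DC and P3 arrays recur in these comparisons, which are therefore not independent.

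DC of the lymph node differed from DC of the dermis in 16 of 36 genes at steady state, 3 higher and 13 lower, with 20.3% of all genes called, 10.1% higher and 10.1% lower. After DNFB, on other arrays, 20 of 36 differed, 5 higher and 15 lower, with 17.5% of all genes called, 8.44% higher and 9.04% lower. Cd68 was at 8.03, 8.47 and 8.004 in node DC against 11.47, 11.49 and 11.52 in dermal DC at steady state, 10.0-fold lower (-3.32 ± 0.16, adjusted p = 7.82e-16 in limma). After DNFB it was at 8.17, 8.37 and 8.60 in node DC against 11.14, 11.12 and 11.22 in dermal DC, 6.88-fold lower (-2.78 ± 0.16, adjusted p = 5.39e-14 in limma). Every node DC array lay below every array of all other populations.

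Gla was at 7.46, 7.89 and 7.35 in node DC against 9.90, 9.92 and 10.01 in dermal DC at steady state, 5.18-fold lower (-2.37 ± 0.21, adjusted p = 3.46e-10 in limma). After DNFB it was at 6.41, 6.28 and 6.81 against 10.10, 9.69 and 10.35, and 11.6-fold lower (-3.54 ± 0.21, adjusted p = 8.78e-14 in limma). All dermal arrays lay between 9.69 and 10.69 whatever the cell type, and all blood and node arrays between 6.28 and 7.89. With the keratinocyte and fibroblast covariates the differences were -2.93 and -3.85. In neither condition did the covariates overlap between node and dermal DC, so for all genes compared here unsorted cells and tissue cannot be told apart by them.

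Gaa ran the other way. It was at 8.30, 8.46 and 8.17 in node DC against 5.39, 5.63 and 5.16 in dermal DC at steady state, 7.56-fold higher (2.92 ± 0.28, adjusted p = 1.62e-09 in limma). After DNFB it was at 8.65, 8.35 and 8.76 against 6.51, 6.499 and 6.87, 3.89-fold higher (1.96 ± 0.28, adjusted p = 2.64e-06 in limma). With the covariates the differences were 2.33 and 1.63, and both passed. Lamp1 was higher in node DC too, 1.69-fold at steady state (0.76 ± 0.10, adjusted p = 1.68e-06) and 2.32-fold after DNFB (1.21 ± 0.10, adjusted p = 2.94e-10, both limma), while Lamp2 fell by 0.99 ± 0.17 and 1.34 ± 0.17.

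Of the 13 hydrolases, 1 rose and 6 fell in node DC at steady state, with a median of -0.63, and 1 rose and 4 fell after DNFB, with a median of -0.47. The hydrolase minus V-ATPase median was -0.52 at steady state, but -0.28 without dermal DC replicate 3, and 0.07 after DNFB, but -0.19 without node DC replicate 1. Man2b1, a lysosomal alpha-mannosidase, fell by 1.85 ± 0.21 and 2.16 ± 0.21, and Ppt1 fell by 1.651 ± 0.21 and 1.90 ± 0.21. Hexa fell by 0.76 ± 0.22 and 0.64 ± 0.22, and the second call was lost without any 1 of 5 arrays (adjusted p up to 0.2 in limma). Manba, a beta-mannosidase, and Asah1, the acid ceramidase, fell at steady state by 0.88 ± 0.28 and 0.79 ± 0.24, and neither passed after DNFB. At steady state Manba lost its call without any 1 of 3 arrays (adjusted p up to 0.12), Asah1 without any 1 of 3 (up to 0.0684) and Hexa without either of 2 (up to 0.0596, all limma). With the covariates Hexa passed in neither comparison (adjusted p = 0.0658 and 0.0529 in limma). Grn fell by 1.41 ± 0.18 and 1.22 ± 0.18.

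Of the 13 V-ATPase genes, 1 rose and 2 fell in node DC at steady state, with a median of -0.11, and 2 rose and 5 fell after DNFB, with a median of -0.54. The median of all genes was 0.05 and 0.04. The accessory proteins Atp6ap1 and Atp6ap2 fell by 1.45 ± 0.17 and 0.93 ± 0.22 at steady state and by 0.92 ± 0.17 and 1.56 ± 0.22 after DNFB. Atp6v1b2 rose by 0.55 ± 0.17 in both, and lost both calls without 1 array (3 and 4 of 6 arrays, adjusted p up to 0.128 and 0.149 in limma) and with the covariates (0.169 and 0.0666 in limma). Atp6v0a1 rose by 1.43 ± 0.22 after DNFB (adjusted p = 1.36e-05 in limma), at 9.27, 9.05 and 9.20 in node DC against 7.89, 7.53 and 7.81 in dermal DC. At steady state it was at 8.37, 8.83 and 8.64 against 8.19, 7.60 and 8.23, a difference of 0.61 ± 0.22 that missed the threshold (adjusted p = 0.0552 in limma). Atp6v0d1 fell by 0.78 ± 0.21 after DNFB, but not without dermal DC replicate 3 or node DC replicate 1 (adjusted p = 0.0863 and 0.0734 in limma).

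The keratinocyte marker mean was 4.82 to 5.17 in node DC against 6.86 to 7.63 in dermal DC at steady state, and 4.81 to 5.01 against 5.59 to 6.45 after DNFB. The mean of the 5 macrophage markers was 4.89 to 5.34 against 7.66 to 7.97 at steady state, and 4.36 to 4.81 against 7.24 to 7.73 after DNFB, and its part in these results was not tested. With both marker means as covariates the differences of Cd68 were -3.69 and -2.99, and of Grn -1.45 and -1.24, and all passed. Of the 48 other lysosomal genes, 4 rose and 11 fell at steady state, and 4 and 14 after DNFB. Naaa, which hydrolyses N-acylethanolamines, fell by 4.72 ± 0.28 and 4.36 ± 0.28, and Gm2a, the GM2 activator, by 3.40 ± 0.16 and 3.13 ± 0.16. Cd63 rose by 2.40 ± 0.28 at steady state.

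**Figure D4:**
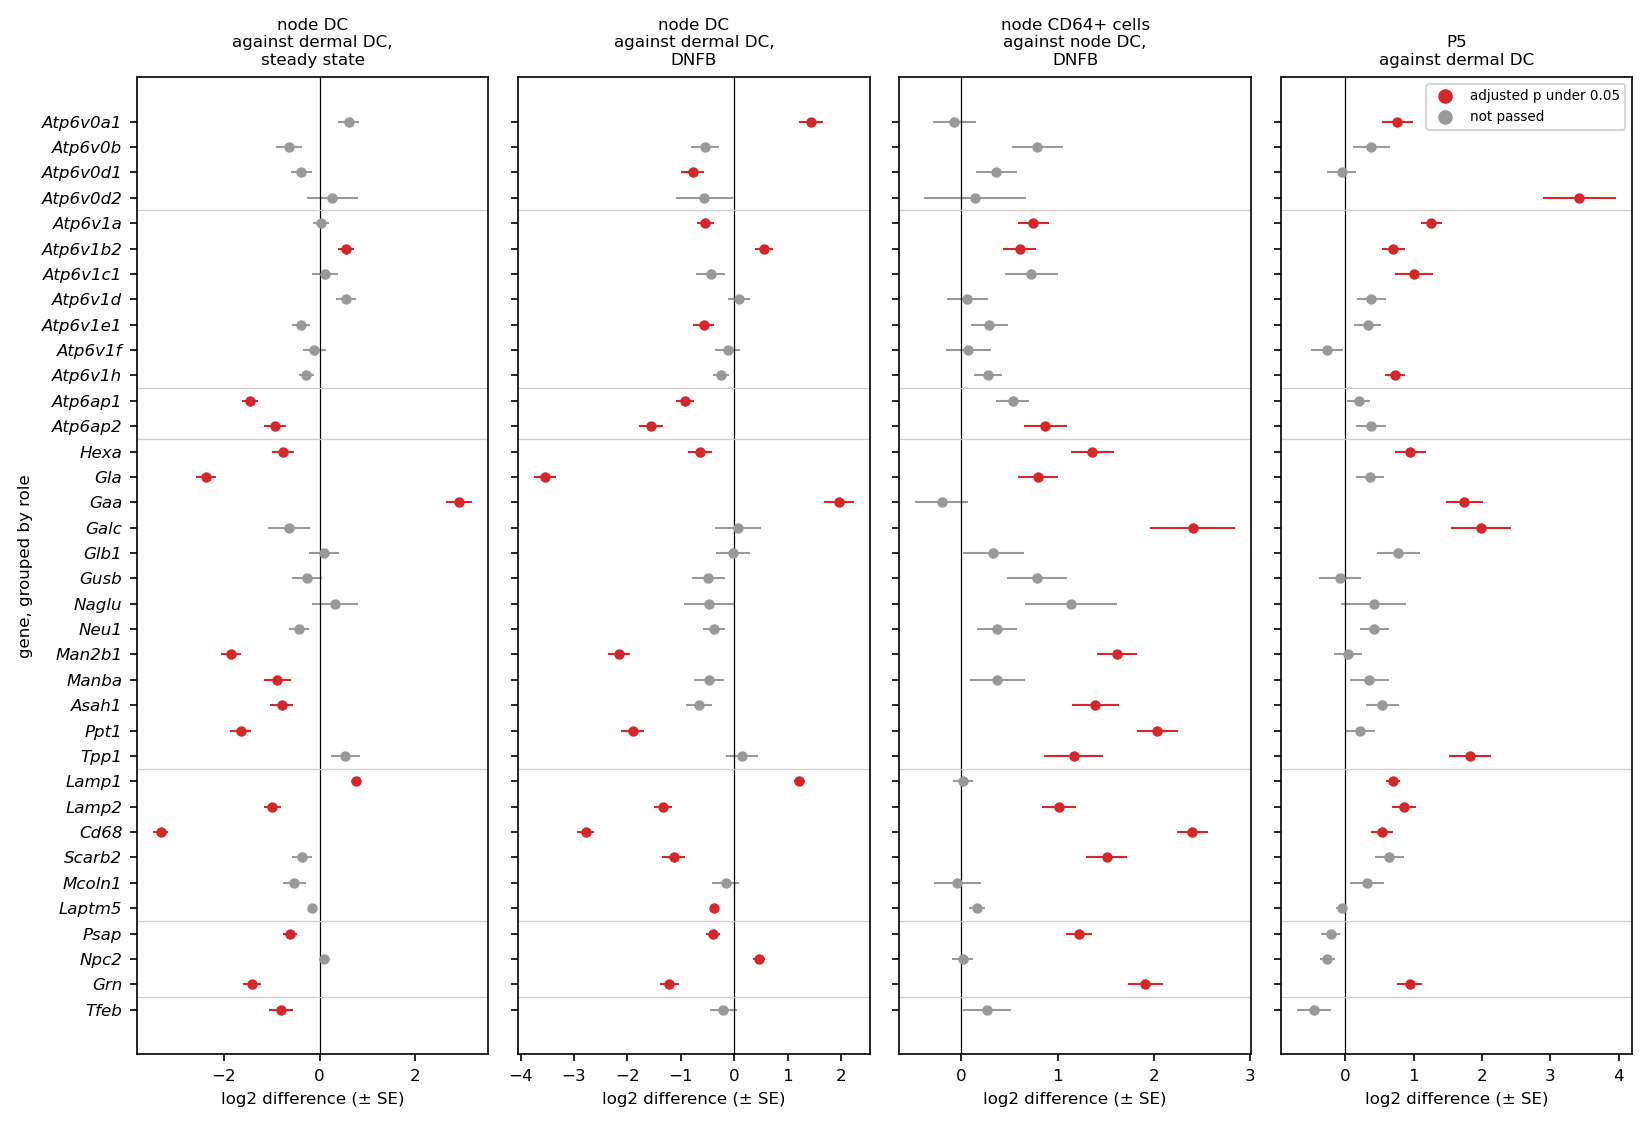
Points are log2 differences with their SE for 36 genes in 4 comparisons, with genes that passed adjusted p under 0.05 in red and the others in grey, on an axis that differs between panels. Cd68 and Gla lie far to the left and Gaa far to the right in both node DC panels (Cd68 -3.32 and -2.78, Gaa 2.92 and 1.96), and all red points lie right of 0 in the other 2 panels. Atp6v0d2 in the P5 panel is drawn at its fitted difference from dermal DC at low signal, which has no exact size.

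In node CD64+ cells against the node DC sorted beside them after DNFB, 15 of 36 genes rose and 0 fell, with 4.82% of all genes called, 3.82% higher and 1% lower. Of the hydrolases 7 rose, with a median of 1.14, and of the V-ATPase genes 3 rose, with a median of 0.36, while the median of all genes was -0.07. The 2 medians differed by 0.78, and by 0.38 without node DC replicate 2.

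Cd68 was at 10.49, 10.66 and 11.20 in node CD64+ cells against 8.17, 8.37 and 8.60 in node DC, 5.29-fold higher (2.40 ± 0.16, adjusted p = 4.3e-12 in limma). Galc was at 6.46, 5.87 and 7.59 against 4.11, 3.78 and 4.81, 5.30-fold higher (2.41 ± 0.44, adjusted p = 0.000394 in limma). Ppt1 was at 9.35, 9.47 and 10.14 against 7.65, 7.49 and 7.70, 4.11-fold higher (2.04 ± 0.21, adjusted p = 4.53e-08 in limma). None of these arrays overlapped between the groups. Grn was 3.77-fold higher, Man2b1 3.08-fold, Scarb2, a membrane receptor that carries beta-glucocerebrosidase to lysosomes, 2.85-fold, Asah1 2.63-fold and Psap 2.33-fold. Among the V-ATPase genes Atp6ap2, Atp6v1a and Atp6v1b2 rose by 0.87, 0.75 and 0.60. Atp6ap2 lost its call without node DC replicate 1 or 2 or node CD64+ replicate 3 (adjusted p up to 0.101), Atp6v1a without node DC replicate 1 (0.0512) and Atp6v1b2 without any 1 of 4 arrays (up to 0.289, all limma). Gaa, high in both groups, was at 8.33, 8.49 and 8.34 against 8.65, 8.35 and 8.76 and did not pass.

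Gla in node CD64+ cells (7.35, 7.21 and 7.34) lay 1.74-fold above node DC after DNFB and below every dermal array, and the call was lost without any 1 of 4 arrays (adjusted p up to 0.124 in limma). Macrophage markers averaged 8.05 to 9.17 in node CD64+ cells against 4.36 to 4.81 in node DC, and monocyte markers 7.67 to 8.27 against 4.43 to 5.07, while keratinocyte markers averaged 4.73 to 4.80 against 4.81 to 5.01. Of the 48 other lysosomal genes 12 rose and 0 fell. Tfec rose by 3.49 ± 0.48, Acp5, the tartrate-resistant acid phosphatase, by 2.87 ± 0.34 and Naaa by 2.69 ± 0.28.

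Within a population, DNFB changed between 0 and 5 of the 36 genes. In P1, with 2 DNFB arrays, 0 passed in limma, with 0.637% of all genes called, 0.562% higher and 0.0752% lower, and 7 had an unadjusted p under 0.05. The hydrolase and V-ATPase medians were both 0.14. In P2, 1 rose and 0 fell, with 2.02% of all genes called, 1.02% higher and 0.998% lower: Ppt1 was at 9.96, 9.78 and 10.09 after DNFB against 9.45, 9.34 and 8.68 at steady state, a difference of 0.79 ± 0.21 (adjusted p = 0.0495 in limma). The call was lost without any 1 of 5 of the 6 arrays (adjusted p 0.0635 to 0.296), with the replicate number as a block (0.0512) and with the covariates (0.314, all limma), and without P2 replicate 1 at steady state 2 genes passed. Atp6v0d2 was at 3.56, 4.78 and 3.93 in P2 after DNFB, against 6.74, 6.48 and 3.39 at steady state, and did not pass (adjusted p = 0.208 in limma).

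In dermal DC, DNFB was followed by 1 rise and 4 falls among the 36 genes, with 4.16% of all genes called, 2.11% higher and 2.06% lower. Npc2, which carries cholesterol out of the lysosome with Npc1, was at 11.01, 10.90 and 10.95 after DNFB against 11.90, 11.75 and 12.11 at steady state, 1.95-fold lower (-0.96 ± 0.11, adjusted p = 1.64e-06 in limma). Psap was at 10.67, 11.06 and 11.22 against 11.88, 11.65 and 11.67, 1.68-fold lower (-0.75 ± 0.14, adjusted p = 0.000735 in limma). The arrays of both genes did not overlap. Gaa was 2.36-fold higher (1.24 ± 0.28, adjusted p = 0.00584 in limma), at 6.51, 6.499 and 6.87 against 5.39, 5.63 and 5.16, and with the covariates its adjusted p was 0.0659. Atp6v1b2 fell by 0.73 ± 0.17 and Lamp1 by 0.46 ± 0.10. Both lost their calls without 1 array: Atp6v1b2 without dermal DC steady-state replicate 3 or DNFB replicate 1 or 2 (adjusted p up to 0.0718) and Lamp1 without steady-state replicate 1 or DNFB replicate 1 (0.0639 and 0.053, all limma). Without DNFB replicate 1 the calls were 3. Monocyte markers averaged 8.84 to 9.30 in dermal DC after DNFB against 6.22 to 7.23 at steady state, and keratinocyte markers 5.59 to 6.45 against 6.86 to 7.63. Of the 3 monocyte markers, Plac8 averaged 10.28 after DNFB against 5.51, and Vcan 6.69 against 4.47. Ccr2 did not rise, at 10.12 against 10.32. The part of the monocyte markers in these results was not tested.

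In node DC, DNFB was followed by 0 rises and 4 falls, again a larger share than the 1.34% of all genes called, 0.903% higher and 0.441% lower. Gla was at 6.41, 6.28 and 6.81 after DNFB against 7.46, 7.89 and 7.35 at steady state, 2.09-fold lower (-1.06 ± 0.21, adjusted p = 0.00341 in limma). Npc2 was at 11.48, 11.29 and 11.50 against 12.09, 12.11 and 11.85, 1.51-fold lower (-0.59 ± 0.11, adjusted p = 0.00253 in limma). Psap fell by 0.53 ± 0.14 and Atp6v1b2 by 0.73 ± 0.17, and each lost its call without 1 array (5 of 6 arrays with adjusted p up to 0.386, and 4 of 6 up to 0.214, in limma). With the replicate block the adjusted p of Psap was 0.0513, and with the covariates 0.0535, both in limma. Without node DC replicate 1 or 2 of either condition the calls were 2. Keratinocyte markers averaged 4.81 to 5.01 after DNFB and 4.82 to 5.17 at steady state. Of the 48 other lysosomal genes 4 rose in node DC, led by Acp5, Tcirg1 (a form of the V0 subunit a) and Sort1 at 1.36, 1.24 and 1.18. In dermal DC 4 rose and 2 fell, led by Arsb (arylsulfatase B), which fell by 1.71 ± 0.25, and in P2 only Arsb passed, falling by 1.51 ± 0.25.

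The DNFB effects themselves differed between populations in 2 of the genes. In dermal DC minus P2, with 0.251% of all genes called, 0.13% higher and 0.12% lower, Npc2 had a difference of effects of -0.76 ± 0.16 (adjusted p = 0.0254 in limma), with effects of -0.96 in dermal DC and -0.20 in P2. In node DC minus dermal DC, with 1.31% of all genes called, 0.813% higher and 0.497% lower, Gla had -1.17 ± 0.29 (adjusted p = 0.0397 in limma), with effects of -1.06 in node DC and 0.10 in dermal DC. Each was lost without any 1 of 9 of the 12 arrays, with adjusted p up to 0.121 for Npc2 and 0.133 for Gla in limma. With the replicate block the adjusted p of Gla was 0.0539, and with the covariates those of Npc2 and Gla were 0.0762 and 0.127, all in limma.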

How the data were processed

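RNA of sorted cells was measured on 38 arrays of 13 populations. Each probe set has a log2 intensity as deposited by the authors. The submitters' processing notes name RMA and affy without versions, and all steps before that, with background correction and normalization, are the authors' own. Per the labels, RNA came from small sorted samples. The arrays give no depth, and their number limits the precision. Array medians ran from 4.39 to 4.65 and correlations between replicates from 0.947 to 0.993. Groups were taken from the titles.

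Of 34760 probe sets, 21640 carried 1 gene symbol and entered the analysis, of which 21553 matched a RefSeq gene ID. Another 1321 carried several symbols and 11799 none, and these were not used. For the 954 genes with more than 1 probe set the one of highest mean was used, giving 19937 genes. A model with a mean per population was estimated with limma 3.58.1 (R 4.3.3, input by data.table version 1.17.8), with 25 residual and 3.13 prior degrees of freedom, for 17 comparisons, with Benjamini-Hochberg adjustment over 19937 genes per comparison and a threshold of 0.05. In simulated data with these group sizes, of 100 genes changed 2-fold and 100 changed 4-fold it found 67 and 92 for P1 against blood monocytes, 62 and 91 for DNFB in P1, and 72 and 95 for DNFB in P2, with 0 in the wrong direction. Alternatives were the replicate number as a block, quantile normalization, the number in the source name as a random block, centred medians, a filter on low genes, the mean of probe sets, keratinocyte and fibroblast marker means as covariates, only the compared groups, and each array left out. Replicate numbers of the titles were checked for pairing: deviations of same-numbered arrays correlated between -0.26 and 0.35, and in 0 of 15 comparisons over 0.1 in every pair, so no pairing was assumed.

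All 36 genes could be named. Per comparison and class, values are given for up to 4 called genes in each direction by size, for genes that were not called only where a class had none or for Atp6v0d1 and Atp6v0d2, and up to 3 called genes of the other lysosomal list; further genes named beside these were chosen after their values were seen. The genes and lists were chosen with earlier results of these data known. Promoter windows are from RefSeq. Figures were drawn with Python 3.11.15, pandas 2.3.3 and matplotlib 3.10.9.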

Additional observations from a re-analysis of the deposited data

Results flagged for a closer look

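The response of Npc2 to DNFB differed between dermal DC and P2 by -0.76 on the log2 scale (SE 0.16, adjusted p = 0.0254 in limma). Every dermal DC array after DNFB lay below every steady-state one, at 10.90 to 11.01 against 11.75 to 12.11, and the P2 arrays after DNFB lay at 11.24 to 11.64 against 11.68 to 11.73. The response of Gla differed between node DC and dermal DC by -1.17 (SE 0.29, adjusted p = 0.0397 in limma). In node DC all 3 arrays after DNFB lay below all 3 steady-state ones, at 6.28 to 6.81 against 7.35 to 7.89, and in dermal DC the groups overlapped, at 9.69 to 10.35 against 9.90 to 10.01. Both calls were lost under several alternatives.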

How the results depend on the processing

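The results recomputed under every alternative were the number of the 36 genes called in each of 17 comparisons and the hydrolase minus V-ATPase median. The number in the source name as a random block and the mean of a gene's probe sets moved none of the 34. The random block had a consensus correlation of 0.0033, so that fit was close to one without a block and says little about shared pools or batches. Only Atp6v1f of the 36 genes had more than 1 probe set. With the replicate number as a block, the calls went to 0 for DNFB in P2 and for the difference of DNFB effects between node and dermal DC, each from 1, and it moved no other number of calls by over 1.5 times; it took the calls of 5 of the 88 named results. Every array correlated best with its own number in 1 of 15 comparisons, P5 against dermal DC, with correlations of 0.04 to 0.07. Whether same-numbered arrays share pools there was not tested. The 15 include comparisons of DNFB with steady state, where same-numbered arrays come from mice of different treatment. With the keratinocyte and fibroblast covariates the calls were 1 for P1 against blood monocytes, where the class difference became -0.26, 2 for P2 against P1, 5 for P3 against blood monocytes, and 0 for DNFB in P2 and both differences of DNFB effects. Between dermis and blood or node the covariates go along with tissue, so unsorted cells and tissue cannot be told apart by that fit. With only the compared groups fitted, which leaves fewer arrays to estimate the spread, they were 0 for P2 against P1, P5 against P3, dermal DC against P3, DNFB in P2, DNFB in node DC and both differences of effects, and 2 for DNFB in dermal DC. Centred medians gave 1 for P5 against P3, 2 for DNFB in node DC, and 0 for DNFB in P2 and for the effects in node minus dermal DC. Without low genes the calls were 0 for P2 against P1 and for the effects in dermal DC minus P2, and quantile normalization gave 0 for those effects too. The cause of these moves was not tested beyond what the fit's construction shows. Leaving out 1 array, the calls ranged from 3 to 7 for P1 against blood monocytes, 0 to 1 for P2 against P1 and for P3 against P2, 0 to 3 for P5 against P3, 1 to 6 for dermal DC against P3, 0 to 2 for DNFB in P2, 3 to 5 for DNFB in dermal DC, 2 to 4 for DNFB in node DC and 0 to 1 for both differences of effects, and the class difference for node CD64+ cells from 0.38 to 0.97. Of the other comparisons, P5 against P4 and DNFB in P1 stayed at 0, P3 against blood monocytes gave 7 to 9, P5 against dermal DC 10 to 13, node against dermal DC 12 to 15 at steady state and 15 to 19 after DNFB, and node CD64+ cells against node DC 11 to 15. The class difference changed sign without 1 array in 11 of 17 comparisons, and moved by over 1.5 times or changed sign in 16. It ran from -0.72 to -0.28 for node against dermal DC at steady state, -0.19 to 0.12 for the same after DNFB, -0.37 to 0.01 for dermal DC against P3, -0.43 to 0.02 for P2 against P1 and -0.68 to -0.44 for P1 against blood monocytes. Of the 88 results named as called, none reversed under any alternative, which was to be foreseen for results picked as called from largely the same arrays. Of these 88, 57 kept their call with only the compared groups fitted, 72 with the covariates and 73 with centred medians. With 1 array left out, the call was kept in 416 of 540 fits. Low signal limits Atp6v0d2, whose folds against populations at that level have no exact size.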
